A study of Mus musculus with 7 samples.

Results

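Genes of intraflagellar transport, of the BBSome and of the ciliary transition zone were examined in retinal cells with reduced Setd1a. The set was named by gene symbol. It holds 39 genes, and 38 of them were in the deposited tables, out of 16143 genes in all. The expression of Tctn2 was not analysed here, and it enters only the descriptions of promoters and gene positions. The 38 measured genes are 14 genes of intraflagellar transport (IFT), 10 genes of the BBSome and its partners (BBS), the ADP-ribosylation-factor-like GTPases Arl3 and Arl13b (ARL), and 12 genes of the transition zone (TZ).

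A primary cilium is a thin, microtubule-based antenna on the cell surface. Because no protein is made inside it, its parts are carried in and out by IFT trains: the IFT-B complex travels towards the tip with kinesin, and the IFT-A complex travels back with dynein. The BBSome, a coat of Bardet-Biedl syndrome proteins, rides on these trains and takes membrane proteins out of the cilium. The transition zone is the gate at the base, where Y-shaped links between microtubules and membrane control what enters. Retinal progenitors carry primary cilia, and the outer segment of a photoreceptor is a modified cilium, so inherited defects in many of these genes cause retinal degeneration.

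The retinas came from mice of the outbred ICR stock at embryonic day 17.5. They were electroporated with a plasmid for EGFP plus either a control plasmid (control, n = 3 libraries) or a plasmid for a short hairpin RNA against Kmt2f, another name of Setd1a (shKmt2f, n = 4 libraries), and were then kept as explants for 2 days. EGFP-positive cells were sorted, so both groups hold electroporated cells of mixed type, and cDNA was made from 1 ng of RNA with SMART-Seq v4. A single knockdown plasmid is named, and no label tells whether replicates are different animals or cultures. The p-values given here therefore cover only library-to-library spread, part of which may be technical. Setd1a encodes a methyltransferase of histone H3 lysine 4, and the comparison asks which transcripts differ when it is reduced.

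Levels are in TPM, the share of a library's transcripts after scaling by length, which can be compared between genes but keeps no sequencing depth. Depth is therefore unknown, and between 11840 and 12318 genes per library reached 1 TPM. The longest Setd1a transcript, of 6487 bases, stood at 0.767, 0.959 and 0.764 TPM in control libraries 1 to 3 and at 0.407, 0.328, 0.374 and 0.432 TPM in shKmt2f libraries 1 to 4. The groups did not overlap, unlike those of its 3 shorter listed transcripts, and the difference was -0.94 on the log2(TPM + 0.1) scale (exact permutation test, two-sided, p = 0.0286, the smallest that a comparison of 3 with 4 libraries allows). The 6487-base transcript held 7.38% of the summed TPM of Setd1a, and those of 315 and 389 bases held 53.8% and 33.7%. Whether a lower level comes from fewer cells of a type or from less RNA per cell cannot be told apart in sorted bulk samples.

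Cilium genes are known targets of RFX transcription factors, which bind a paired motif called the X-box. RefSeq promoters of GRCm38.p6, from 250 bases before to 50 bases after each start, were on hand for 35 of the 39 genes. They were searched on both strands for GTNNCC followed after 0 to 3 bases by NGNAAC, and for the single site GTTGCC, which can overlap the first part of the pair. The pair was found for 14 of the 35 genes (40.0%), against 1606 of all 27025 genes in the promoter table (5.94%) and 605 of the 8529 genes both tested for expression and present in it (7.09%). The single site was found for 17 of 35 (48.6%) against 14.1% of all genes. By group the pair was present in 8 of 12 TZ genes, 3 of 11 IFT genes, 3 of 10 BBS genes and neither ARL gene, and Tctn2 is among the 8. A match of letters describes these windows and does not show binding.

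Windows from 5 genes show how the pair looks upstream of the start, with the pair in capitals, 5' to 3' on the gene's strand. In Ift22 and Ift57 the first stretch in capitals matches the pattern on the opposite strand. Ift22 and Ift57 are shown because each has 2 pairs, Ift22 also because it fell in shKmt2f cells, and Bbs7, Mks1 and Tctn3 as examples from the BBS and TZ groups. Their positions are chr5:136908077-136908140 (plus strand) for Ift22, chr16:49699197-49699256 (plus) for Ift57, chr3:36613487-36613520 (minus) for Bbs7, chr11:87853181-87853214 (plus) for Mks1 and chr19:40612349-40612381 (minus) for Tctn3, all in GRCm38.p6.
Ift22: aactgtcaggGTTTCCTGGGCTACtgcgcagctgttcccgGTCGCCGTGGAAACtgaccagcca
Ift57: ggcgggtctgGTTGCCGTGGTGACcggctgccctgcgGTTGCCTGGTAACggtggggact
Bbs7: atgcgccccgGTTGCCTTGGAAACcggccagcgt
Mks1: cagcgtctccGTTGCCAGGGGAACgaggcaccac
Tctn3: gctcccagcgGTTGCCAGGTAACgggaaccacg

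The 13 measured genes with a pair had a median log2 fold change of 0.0069, with 7 above zero, and 1 of them passed the test of differential expression. The 21 measured genes without a pair had a median of 0.09, with 15 above zero, and 3 of them passed. The difference between these sets was not tested. The genes with a pair had the higher GC content (median 51.8% against 47.9%).

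Among the 38 genes, 3 rose and 2 fell in shKmt2f cells: Ift81, Bbs5 and Ttc8 were higher, and Ift22 and B9d1 were lower. The test was limma on log2(TPM + 1) of the TPM summed per gene, fitted over the 12456 genes that reached 1 TPM in 3 or more libraries, and a gene passed at a Benjamini-Hochberg adjusted p under 0.05. All 38 genes passed that filter. The 5 calls are 13.2% of the genes, against 14.1% of all genes tested, with 10.4% higher and 3.69% lower genome-wide. This share is near the background and is not a result about the cilium genes as a set. The ranges of the groups did not overlap for 5 genes in the higher direction (19.2% of all genes) and 5 in the lower (9.67%), and 10 of the 38 had an unadjusted limma p under 0.05, against 32.3% of all genes.

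The groups of genes are given by their counts and medians. The median log2 fold change was 0.07 for IFT, with 1 gene higher and 1 lower of 14, 0.16 for BBS, with 2 higher and none lower of 10, and 0.05 for TZ, with none higher and 1 lower of 12. It was 0.0047 for the pair of ARL genes, of which neither passed, and 0.09 over all genes tested, of which 59.3% were above zero. All 10 BBS genes had a fold change above zero, against 8 of 14 IFT and 6 of 12 TZ genes. After correction for GC content and transcript length, 5 of the 10 BBS genes were below zero (Bbs1, Bbs7, Arl6, Bbs10 and Bbs12) and the BBS median was 0.03. The difference between groups of genes was not tested, since genes of one group are not replicates. Under median-ratio scaling, which moves the median of all genes from 0.09 to -0.02, the IFT and TZ medians were -0.06 and -0.05 and the BBS median was 0.05.

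**Figure D1:**
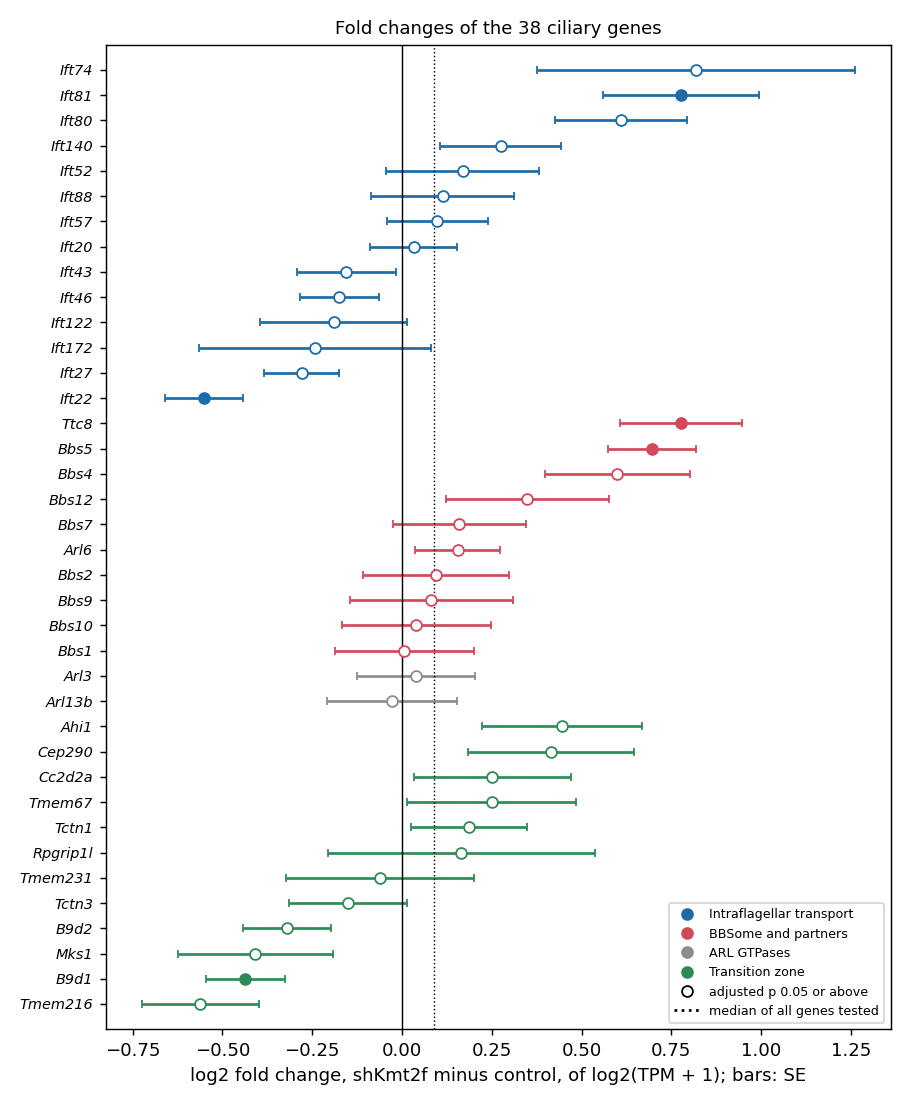
Log2 fold change of each of the 38 genes (x axis, shKmt2f minus control, log2(TPM + 1) scale, bars are standard errors from limma), ordered within IFT, BBS, ARL and TZ, with filled points for an adjusted p under 0.05 and a dotted line at the median of all genes tested. The 5 filled points are Ift81, Ttc8 and Bbs5 to the right of zero and Ift22 and B9d1 to the left.

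The IFT-B core, the backbone of the anterograde train, held both IFT genes that passed, and they moved in opposite directions. Ift81, which pairs with Ift74 to bind tubulin, stood at 24.2, 48.0 and 32.9 TPM in controls 1 to 3 and at 58.5, 48.3, 65.4 and 63.2 TPM in shKmt2f 1 to 4. Control 2 reached nearly the lowest shKmt2f library, but the groups did not overlap. Ift81 rose by 0.78 (log2 fold change, SE 0.22, adjusted p = 0.0475). Ift22, a small GTPase-like subunit, stood at 71.2, 57.9 and 62.4 TPM in controls and at 44.5, 41.8, 44.8 and 41.3 TPM in shKmt2f. Every shKmt2f library lay below every control. Ift22 fell by 0.55 (SE 0.11, adjusted p = 0.0219), to 67.5% of the control mean.

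The other IFT-B core genes did not pass. Ift74 had the largest fold change of all 38 genes, 0.82, but an SE of 0.44 and an adjusted p of 0.245. Its controls split widely, at 5.06, 20.3 and 4.10 TPM, around shKmt2f values of 15.9, 15.8, 13.1 and 12.9 TPM, so that control 2 was the highest of the 7 libraries. With 1 library left out at a time the log2 fold change of Ift74 ran from 0.43 without control 3 (limma adjusted p = 0.538) to 1.46 without control 2 (adjusted p = 0.00115), and without control 1 it was 0.56 (adjusted p = 0.555). Ift27, a GTPase that hands cargo to the BBSome, lay lower in every shKmt2f library (47.9 to 51.6 TPM) than in any control (54.9 to 66.2 TPM), with a log2 fold change of -0.28 and an adjusted p of 0.104. Ift46 was the most abundant of the 38 genes at 368 ± 2.52 TPM in controls (SD, n = 3) and 327 ± 37.8 TPM in shKmt2f (SD, n = 4), and the ranges overlapped. Most of that level, 85.0%, sat in a listed transcript of 229 bases. Ift52 and Ift88 had log2 fold changes of 0.17 and 0.11, with ranges that overlapped, and Ift88, at 4.24 ± 1.56 TPM in controls and 4.52 ± 0.304 TPM in shKmt2f, was the least abundant IFT gene.

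Of the 4 peripheral IFT-B genes none passed. Ift80 came nearest: it stood at 16.5, 12.5 and 10.1 TPM in controls and at 19.4, 24.0, 17.4 and 19.9 TPM in shKmt2f. The groups did not overlap, and the log2 fold change was 0.61 (SE 0.18, adjusted p = 0.0569). A retained-intron transcript of 241 bases held 72.3% of Ift80 and had 0.70. The coding Ift80 transcript of 3880 bases had 0.32, and both transcripts had overlapping ranges. Ift20, which also works at the Golgi, and Ift57 had fold changes of 0.03 and 0.10 and overlapping ranges. Ift172, the largest subunit, had a control 3 value of 27.5 TPM against 11.2 and 13.2 TPM in the other controls, inside and above a shKmt2f range of 9.10 to 19.0 TPM. None of the 3 measured IFT-A genes passed either: Ift43, Ift122 and Ift140 had log2 fold changes of -0.15, -0.19 and 0.27, each with overlapping ranges.

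Among the 7 BBSome subunits of the set 2 rose and none fell. Bbs5, which binds phosphoinositides at the membrane, stood at 11.8, 13.9 and 12.8 TPM in controls and at 22.9, 21.1, 21.5 and 20.1 TPM in shKmt2f. This was the clearest separation of the set: the lowest shKmt2f library lay well above the highest control, and Bbs5 rose by 0.70 (SE 0.12, adjusted p = 0.0163). Ttc8, the BBS8 subunit, stood at 29.6, 46.8 and 28.9 TPM in controls and at 62.3, 60.8, 55.0 and 59.9 TPM in shKmt2f. Control 2 lay between the other controls and the shKmt2f libraries, and Ttc8 rose by 0.78 (SE 0.17, adjusted p = 0.0278).

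Bbs4, an adaptor to centriolar satellites, was also higher in every shKmt2f library than in any control, without passing. It stood at 25.8, 46.2 and 43.9 TPM in controls and at 57.4, 62.6, 60.5 and 49.5 TPM in shKmt2f, with a log2 fold change of 0.60 and an adjusted p of 0.0774. Bbs4 and Ttc8 were the most abundant BBS genes, with Bbs4 the higher in controls by mean and Ttc8 the higher in shKmt2f. The other 4 subunits lay nearer zero. Bbs1, Bbs2, Bbs7 and Bbs9 had log2 fold changes of 0.0069 to 0.16, all with overlapping ranges, so the subunits of this single complex did not move by one amount. The 3 genes that assemble or recruit the BBSome did not pass: Arl6, the GTPase that brings it to the membrane, had a log2 fold change of 0.15, and the chaperonin-like Bbs10 and Bbs12 had 0.04 and 0.35. Bbs10 was the least abundant BBS gene, with 2.01 ± 0.781 TPM in controls and 2.06 ± 0.450 TPM in shKmt2f. The summed TPM of the 10 BBS genes was 132 to 201 in controls and 212 to 238 in shKmt2f.

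Neither of the pair of ARL GTPases differed beyond its spread. Arl3, which releases lipid-modified cargo inside the cilium, stood at 29.2, 28.0 and 39.0 TPM in controls and at 29.7, 27.7, 37.3 and 36.7 TPM in shKmt2f. Arl13b, the activator of Arl3 and a common stain for cilia, stood at 3.97, 6.69 and 4.92 TPM in controls and at 5.55, 5.18, 4.93 and 4.31 TPM in shKmt2f. Their log2 fold changes were 0.04 (SE 0.16) and -0.03 (SE 0.18).

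In the transition zone 1 of 12 genes fell and none rose. B9d1, a B9-domain protein of the Meckel syndrome (MKS) module, stood at 41.5, 36.5 and 38.3 TPM in controls and at 30.0, 27.7, 26.4 and 29.4 TPM in shKmt2f. Every shKmt2f library was below every control, and B9d1 fell by 0.44 (SE 0.11, adjusted p = 0.0375). Its partner B9d2, the most abundant TZ gene, stood at 75.6, 86.4 and 97.1 TPM in controls and at 67.5, 73.8, 61.0 and 73.1 TPM in shKmt2f. The ranges did not overlap, by a margin of under 2 TPM, and the log2 fold change of -0.32 did not pass (adjusted p = 0.111). Tmem216, a membrane protein of the same module, had the largest TZ fold change, -0.56 (SE 0.16, adjusted p = 0.0538). Its levels were 36.1, 26.8 and 31.9 TPM in controls and 19.4, 18.2, 20.4 and 26.5 TPM in shKmt2f, where library 4 lay just under control 2.

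The remaining TZ genes split by sign. Mks1, Tctn3 and Tmem231 had log2 fold changes of -0.41, -0.15 and -0.06. Ahi1, Cep290, Cc2d2a, Tmem67, Tctn1 and Rpgrip1l had 0.45, 0.42, 0.25, 0.25, 0.19 and 0.17. All 9 had overlapping ranges and none passed. In Ahi1, a scaffold mutated in Joubert syndrome, control 2 (8.71 TPM) lay above every shKmt2f library (7.22 to 8.68 TPM) and the other controls (4.34 and 4.39 TPM) below them all. Cep290, a long protein of the Y-links, stood at 1.13, 2.69 and 1.04 TPM in controls and at 2.88, 2.56, 1.81 and 2.31 TPM in shKmt2f, so that control 2 lay within the shKmt2f range and the other controls below it. Tctn1, the least abundant of the 38 genes, stood at 1.60 ± 0.367 TPM in controls (SD, n = 3) and 1.96 ± 0.334 TPM in shKmt2f (SD, n = 4). The summed TPM of the 12 TZ genes was 195 to 218 in controls and 152 to 175 in shKmt2f, a sum to which B9d2, B9d1 and Tmem216 gave most.

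**Figure D2:**
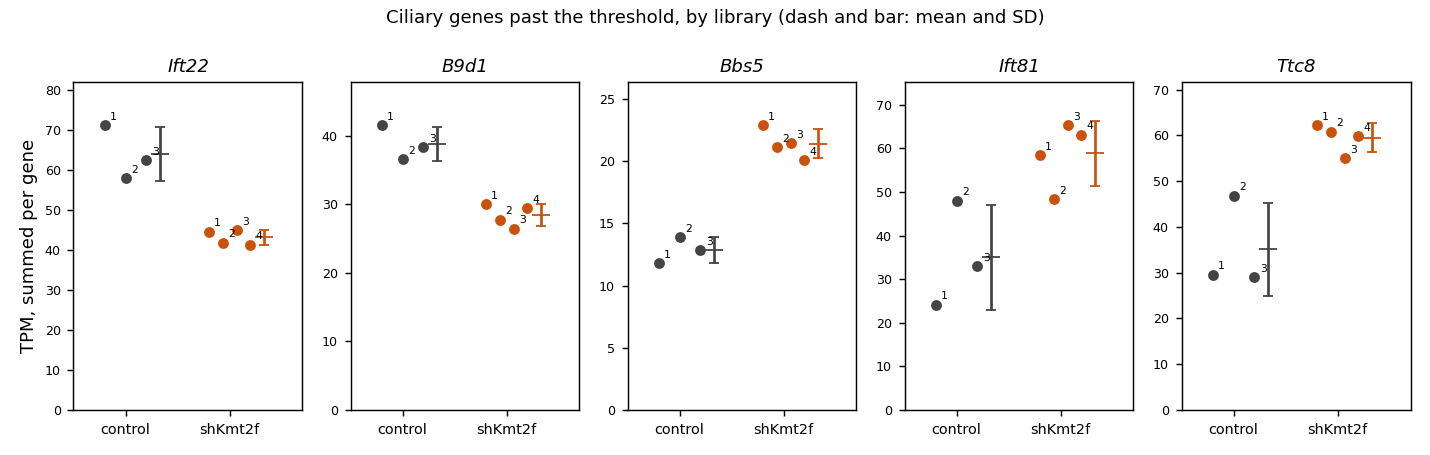
TPM summed per gene (y axis, from 0) in each numbered library of the control and shKmt2f groups for the 5 genes that passed, with a dash and bar for the mean and SD. The groups do not overlap in any panel, and control 2 is the control nearest the shKmt2f libraries in all 5.

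The 5 calls depended on single libraries more than the fold changes did. Ift22, Ift81, Ttc8 and B9d1 each lost the call when any 1 library other than control 2 was left out, with adjusted p up to 0.0676, 0.136, 0.0906 and 0.113. Bbs5 lost it without control 1 or without shKmt2f 1 (adjusted p up to 0.06). In these fits without a library other than control 2 the share called over all genes was 2.29% to 4.19%. Over all 7 omissions the log2 fold change ran from -0.62 to -0.47 for Ift22, from -0.48 to -0.39 for B9d1, from 0.64 to 0.75 for Bbs5, from 0.54 to 1.02 for Ift81 and from 0.66 to 1.00 for Ttc8. Leaving out control 2 raised the count to 7 higher and 4 lower (28.9%), against 24.3% of all genes tested then. Added to the 5 were Ift74, Bbs4, Cep290 and Ahi1 as higher and Ift27 and Tmem216 as lower.

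Fold change followed base composition. Across the 38 genes, the log2 fold change correlated with the GC content of their transcripts at Pearson r = -0.72 and Spearman rho = -0.73, a description across genes that share libraries and are not replicates. Over 12453 genes tested it was -0.46 and -0.47. All 19 genes below the median GC content of 48.5% had a fold change above zero (median 0.25, 3 higher, none lower), against 6 of the 19 at or above it (median -0.15, none higher, 2 lower). The 3 genes that rose had 39.4% (Bbs5), 44.0% (Ift81) and 44.8% GC (Ttc8), and the 2 that fell had 52.8% (Ift22) and 53.6% (B9d1). The sign split between BBS, with a median GC of 44.8%, and TZ, with 50.8%, moved with GC too.

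**Figure D3:**
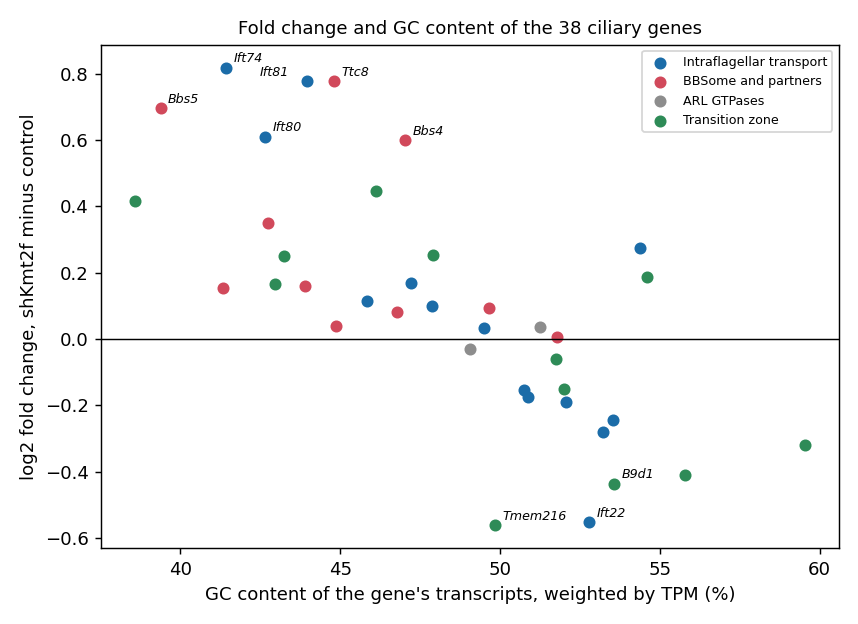
Log2 fold change (y axis, shKmt2f minus control) against the TPM-weighted GC content of each gene's transcripts (x axis, %), 1 point per gene, coloured by group. Points fall from upper left to lower right, with Bbs5, Ift74, Ift81 and Ttc8 at low GC and Ift22 and B9d1 at high GC.

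The libraries differed in the same property. The slope of a library's deviation from the mean of all libraries was fitted over the 12453 genes tested that had a sequence. It was 0.25, -0.04 and 0.41 log2 units per 10 points of GC in controls 1 to 3, and between -0.18 and -0.12 in the 4 shKmt2f libraries. Control 2 was thus nearer the shKmt2f libraries than the other controls in this respect. It was the highest control in 17 of the 19 genes of lower GC and in 3 of the 19 of higher GC. When each library was corrected for GC content and transcript length by loess over all genes, 1 of the 38 genes passed, against 10.1% of all genes: Ttc8 remained higher at 0.66 (adjusted p = 0.0311). Ift81 kept most of its fold change, at 0.63 (adjusted p = 0.0759), without passing. Bbs5, Ift22 and B9d1 moved nearer zero, to 0.30, -0.29 and -0.11, and did not pass.

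**Figure D4:**
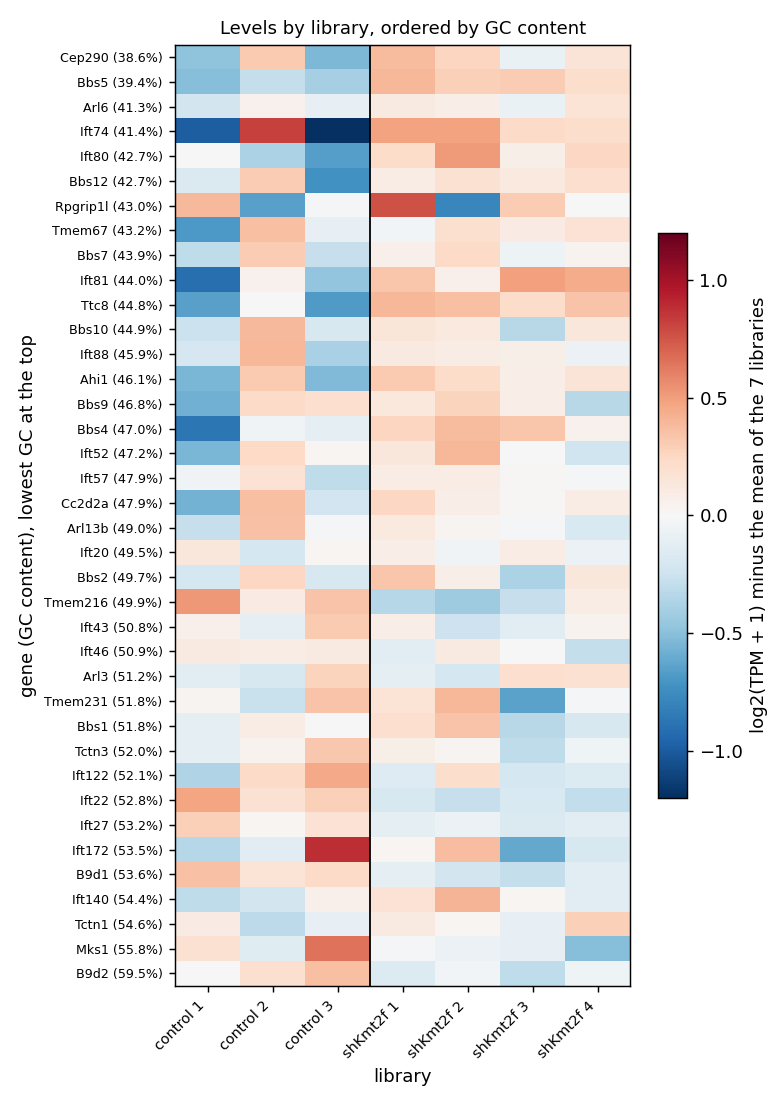
Heat map of log2(TPM + 1) minus the mean of the 7 libraries (colour) for the 38 genes, ordered from low GC at the top to high GC at the bottom, by library. In the upper rows control 2 mostly shares the colour of the shKmt2f libraries, while controls 1 and 3 are lower. In the lower rows the controls are mostly higher.

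Single transcripts showed which part of a gene carried its level. The 38 genes had 172 listed transcripts, of which 112 passed the filter. None passed the limma test over all transcripts (adjusted p at or above 0.0533, where 2.24% of all transcripts passed), and 24 of the 112 had an unadjusted p under 0.05, against 23.4% of all. In the authors' deposited table, 5 of the 172 had a q-value under 0.05 (5.52% of all transcripts there): a pair of Ift81 transcripts and 1 of Ttc8 higher, and a pair of Ift22 transcripts lower.

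In Ift22 the difference lay in coding transcripts. Its coding transcript of 637 bases stood at 27.6, 22.0 and 24.6 TPM in controls and at 18.4, 16.4, 18.0 and 17.5 TPM in shKmt2f (log2 fold change -0.47), and the coding transcript of 501 bases had -0.64. In Ttc8, Bbs5, Ift81 and B9d1 the leading transcript was not coding. A retained-intron transcript of 406 bases held 43.5% of Ttc8 and had a log2 fold change of 0.88, with 10.6, 19.2 and 13.3 TPM in controls and 27.9, 27.0, 25.3 and 25.9 TPM in shKmt2f. The coding Ttc8 transcripts of 2272 and 2270 bases had 0.42 and 0.82, both with overlapping ranges. For Bbs5 a retained-intron transcript of 508 bases had 0.76. Its coding transcript of 643 bases, with 25.3% of the level, had 0.25 and overlapping ranges, and the coding transcript of 1397 bases, with 13.7%, stood at 1.48, 0 and 2.42 TPM in controls and at 3.30, 2.93, 3.18 and 3.74 TPM in shKmt2f.

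The coding Ift81 transcript of 2950 bases was low in every library, at 0.952, 2.96 and 1.13 TPM in controls and 3.15, 3.40, 3.32 and 3.54 TPM in shKmt2f (log2 fold change 0.77, adjusted p = 0.124). It lay higher in all 4 shKmt2f libraries, as did the leading 332-base processed transcript of that gene. For B9d1 the coding transcript of 817 bases held 22.6% of the level and had a log2 fold change of -0.50. The leading B9d1 transcript, a processed transcript of 405 bases, held 39.35% and had -0.20, with overlapping ranges. Across the 38 genes the leading transcript was not coding for 10 and was shorter than 700 bases for 17. With coding transcripts only, 2 of 37 genes were higher (Ift81 and Bbs5) and 3 lower (Ift22, B9d1 and Tmem216), or 13.5%, against 17.5% of all genes in that fit. Of the 39 genes, 9 share bases with another protein-coding gene, always on the opposite strand and none of them among the 5 that passed. Reads there cannot be assigned by strand, because SMART-Seq v4 cDNA cut by tagmentation does not mark it.

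Other genes of the cilium were described for comparison from lists outside the set. Over all genes tested, 10.4% were higher and 3.69% lower in shKmt2f. Of 17 tested further IFT subunits and motors none passed (3 with an unadjusted limma p under 0.05). Of 12 further BBS and ARL cofactors only Rp2, the GTPase-activating protein of Arl3, passed, rising by 0.94 (adjusted p = 0.03). Of 13 further TZ genes 2 rose and 2 fell. Iqcb1, or nephrocystin-5, rose by 0.71 and Rpgr, a retinitis pigmentosa gene, by 0.99. Tmem107 and Tmem138 fell by 1.27 and 0.61. Tmem107, a membrane protein of the MKS module, stood at 134, 111 and 121 TPM in controls and at 46.4, 44.0, 53.8 and 55.4 TPM in shKmt2f. Of 11 basal-body genes only Ofd1 passed, rising by 0.93 from a low level. Among controls it reached 1 TPM only in control 2, so it met the filter only through the shKmt2f libraries, where it is higher. Rp2, Iqcb1, Rpgr and Ofd1 had GC contents of 38.0% to 43.9%, and Tmem107 and Tmem138 of 55.6% and 50.2%.

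Of the regulators and motile-cilium genes, those that passed fell, but the regulators split by sign. Over all genes tested, 10.4% were higher and 3.69% lower in shKmt2f. Of 6 tested RFX and FOXJ1 regulators, Rfx2 fell by 1.02 (adjusted p = 0.0129) and Foxj1, the master regulator of motile cilia, by 0.52 (adjusted p = 0.0349). Foxj1 stood at 0.781 to 1.73 TPM throughout and reached 1 TPM only in the controls. It thus passed the filter only through the group where it is higher. Of the 6 regulators, 3 had a fold change above zero: Rfx5 (0.70), Rfx7 (0.49) and Rfx3 (0.34). None of them passed, though every shKmt2f library of Rfx5 and Rfx7 lay above every control. Of 7 tested motile-cilium genes, the radial-spoke genes Rsph1 and Rsph9 fell by 2.61 and 0.83. Rsph1 stood at 28.8, 25.9 and 17.8 TPM in controls and at 2.63, 2.46, 3.32 and 3.88 TPM in shKmt2f. The only tested genes of the multiciliated-cell marker list are Foxj1 and Rsph1 again, so that list adds no further gene. It summed to 19.8 to 30.9 TPM in controls and 3.44 to 4.77 TPM in shKmt2f, most of it Rsph1.

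Some cell type markers differed between the groups, where 10.4% of all genes tested were higher in shKmt2f and 3.69% lower. Of the markers tested, 2 of 8 for retinal progenitors fell and none rose (summed level 856 to 1020 TPM in controls, 657 to 770 TPM in shKmt2f). The progenitor markers Pax6, Sox2 and Hes1 had log2 fold changes of 0.11, 0.03 and 0.10. For ganglion cells 3 of 3 rose (11.1 to 16.9 against 27.0 to 31.5 TPM). So did 2 of 5 for photoreceptors (393 to 471 against 586 to 765 TPM). For amacrine and horizontal cells 2 of 5 rose (71.6 to 81.0 against 92.2 to 96.4 TPM). No ganglion, photoreceptor, amacrine or horizontal marker fell past the threshold. Of 7 neurogenic markers 2 rose and 1 fell (1636 to 2159 against 2169 to 2462 TPM). That sum holds Atoh7, at 99.0, 101 and 312 TPM in controls and at 20.4, 37.3, 429 and 428 TPM in shKmt2f. Of 3 tested Müller glia markers 1, Glul, fell, and Glul gave most of the sum (364 to 423 against 307 to 381 TPM). Rlbp1 and Slc1a3 had log2 fold changes of 0.27 and 0.48 with overlapping ranges. Aqp4, under the filter, was higher in every shKmt2f library than in any control. The ganglion list holds 6 genes. Pou4f2, Rbpms and Sncg were under the filter, with overlapping ranges, and Gap43 gave most of the sum. Of the controls, none reached 1 TPM for the amacrine and horizontal marker Onecut1, and only control 2 did for the ganglion marker Nefl. For the ganglion marker Isl1, control 1 stayed at 0.720 TPM. All of these genes rose, and they met the filter of 3 libraries only through the shKmt2f libraries, where they are higher. The part of cell makeup in the differences of the cilium genes was not tested. Most markers of other tissues were low: pigment epithelium summed to at most 0.455 TPM, microglia, with C1qa alone listed, to 1.54 TPM, and astrocytes to 1.05 TPM. Endothelium with pericytes summed to between 16.8 and 29.6 TPM, most of it Cldn5 (15.5 to 28.6 TPM), with no gene past the threshold. None of the 4 red-cell markers was listed.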

How the data were processed

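SMART-Seq v4 libraries of 3 control and 4 shKmt2f samples were analysed. Salmon 0.11.3, sleuth 0.30.0 and the build GRCm38.p6 are named per the submitters' processing notes. For each library the authors deposited 55475 transcript rows in TPM, and 71 of these hold no value. The deposited p-value, q-value and effect columns, the last on a natural log scale, are the same in all 7 tables and are the authors' own. TPM totals were 991445 to 992309 per library. TPM is not a count and keeps no depth, so no counting interval is given.

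TPM was summed per gene identifier, and the symbol served as its label. A gene was tested if 3 or more libraries reached 1 TPM. The test was limma (version 3.58.1, under R 4.3.3) on log2(TPM + 1) with trend and robust options and no term beside the group, followed by Benjamini-Hochberg adjustment at 0.05. Fold changes are shKmt2f minus control on that scale and understate changes of low genes. The code was tested on simulated data. The genes, groups and lists were chosen with earlier results of these data known, so lists are described by counts and medians and have no test of their own. Genes named in the text are, per group, the highest and lowest in TPM and the 2 with the largest fold change, plus any in a count. Of each other cilium list, up to 3 passing genes with the smallest adjusted p are named, and further ones were added by count after their values were seen. GC content and length come from GENCODE transcripts of GRCm38, and promoter letters from RefSeq. Pairing by replicate number, scaling, filter, pseudocount, composition, transcript choice and each library were varied.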

Additional observations from a re-analysis of the deposited data

Results flagged for a closer look

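A sample far from the others was looked for among the 4 shKmt2f libraries of each of the 38 genes with Dixon's criterion, which chance meets in about 1 in 20 groups. It was met for 2 genes. For Ift122, shKmt2f library 2 stood at 31.0 TPM while the other 3 lay between 22.9 and 23.9 TPM. For Bbs10, shKmt2f library 3 stood at 1.38 TPM while the others lay between 2.25 and 2.30 TPM.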

How the results depend on the processing

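Leaving out 1 library at a time gave 0 to 7 genes higher and 0 to 4 lower, medians of -0.00629 to 0.0889 (IFT), 0.0716 to 0.3 (BBS) and -0.141 to 0.14 (TZ), and 0 to 11 transcripts past the threshold, the 11 without control 2. With 12345 to 12406 genes tested, the share called over all genes was 2.29% to 24.3%. Median-ratio scaling gave 2 higher and 4 lower, medians of -0.0552 (IFT) and -0.0542 (TZ), and 1 transcript. Correction for GC content and length gave 1 higher, 0 lower and a TZ median of -0.102. Coding transcripts gave a TZ median of -0.0654. Weighting TPM by transcript length gave 4 lower and a TZ median of -0.158. No filter and a pseudocount of 0.1 gave 2 higher and 2 lower each.

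Replicate numbers are shared by 3 pairs of libraries, but same-numbered libraries deviated together only weakly (correlations of 0.0793, 0.0651 and 0.0597), and no control correlated best with its own number. As a replicate block they gave 3 higher (Bbs4, Bbs5 and Ttc8) and 1 lower (Tmem216).

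Directions that reversed were mostly of small fold changes. With GC and length correction they were Ift43 at 0.0328, Ift27 at 0.00946, Ift46 at 0.0692, Ift88 at -0.00391, Bbs1 at -0.00351, Bbs7 at -0.224, Arl6 at -0.201, Bbs10 at -0.283, Bbs12 at -0.0838, B9d2 at 0.0576, Tmem67 at -0.2, Cep290 at -0.278 and Rpgrip1l at -0.0611. With length weighting they were Ift20 at -0.0817, Bbs1 at -0.104, Bbs2 at -0.0419, Bbs10 at -0.0413, Arl3 at -0.0675, Arl13b at 0.184 and Tctn1 at -0.136. With median-ratio scaling they were Ift20 at -0.0896, Ift57 at -0.0209, Bbs1 at -0.0864, Bbs2 at -0.0184, Bbs9 at -0.0375, Bbs10 at -0.042 and Arl3 at -0.0828. A pseudocount of 0.1 put Bbs1 at -0.000903, and the replicate block put Bbs10 at -0.000982, Arl3 at -0.0174 and Arl13b at 0.0283. Leaving out 1 library reversed 14 genes, over ranges of -0.0574 to 0.335 (Ift52), -0.0484 to 0.344 (Ift88), -0.0631 to 0.108 (Ift20), -0.0253 to 0.213 (Ift57), -0.483 to 0.129 (Ift172), -0.105 to 0.12 (Bbs1), -0.00202 to 0.244 (Bbs2), -0.181 to 0.223 (Bbs9), -0.079 to 0.243 (Bbs10), -0.0491 to 0.182 (Arl3), -0.176 to 0.14 (Arl13b), -0.0249 to 0.501 (Tmem67), -0.215 to 0.144 (Tmem231) and -0.11 to 0.45 (Rpgrip1l). The cause was not tested.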
